A study of Caenorhabditis elegans with 15 samples.

Results

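The F-box B genes (fbxb) form one of the large F-box families of the nematode Caenorhabditis elegans, and 95 of them were measured among 17138 genes. Members were all genes whose symbol in the platform annotation was fbxb followed by a number. Each gene was represented by the probe set that carried this symbol alone and had the highest mean over the 15 arrays. That mean decided between probe sets for 1 gene only, fbxb-74, and the family as such was singled out with earlier results of these arrays known. The RefSeq gene table of assembly WBcel235 lists 113 fbxb genes, of which 18 had no probe set of their own (fbxb-6, fbxb-7, fbxb-9, fbxb-12, fbxb-27, fbxb-28, fbxb-31, fbxb-32, fbxb-44, fbxb-45, fbxb-50, fbxb-53, fbxb-60, fbxb-64, fbxb-75, fbxb-87, fbxb-91 and fbxb-92). The table calls 90 of the measured genes protein coding and 5 pseudogenes (fbxb-4, fbxb-36, fbxb-80, fbxb-86 and fbxb-94). For 12 genes the probe set has a name ending in _s_at, the maker's mark for probes that match transcripts of several genes, so that related transcripts can add to the signal of fbxb-8, fbxb-15, fbxb-29, fbxb-40, fbxb-41, fbxb-54, fbxb-72, fbxb-88, fbxb-96, fbxb-100, fbxb-104 and fbxb-106.

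The embryos came from wild-type N2 hermaphrodites that had received a mixed injection of double-stranded RNAs that target lit-1, mex-1 and pal-1 for knockdown by RNA interference. They were dissected out with 2 to 4 cells, and total RNA was extracted at once (0 h) or after 1, 2, 3 or 4 h. Each of the 5 times has 3 Affymetrix C. elegans arrays, named A, B and C after their titles. Every group carries the triple injection, and untreated embryos were not analysed here. The series' design text gives 3 independent samples per time. The labels do not say whether these came from separate mothers, so part of the spread behind the p-values could be technical. As background, mex-1 is a maternal zinc-finger gene that keeps anterior blastomeres from an MS-like fate, lit-1 a kinase gene of the Wnt asymmetry pathway and pal-1 a Caudal-type homeobox gene of the posterior lineages.

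An F-box is a short motif through which a protein docks on Skp1. In an SCF ubiquitin ligase, the cullin scaffold (CUL-1 in C. elegans) holds a RING protein that recruits the ubiquitin-conjugating enzyme and a Skp1-related protein (an SKR protein) that holds the F-box protein, and the F-box protein selects the substrate to be marked with ubiquitin. The genome of C. elegans holds far more F-box genes than those of most animals, many of them in tandem clusters, and fbxb proteins combine the F-box with the F-box-associated domain of type 2. The files give no substrate or function for any single fbxb gene, so the members are ordered here by their time course and then by their place along the chromosomes.

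Values are log2 expression values made with RMA, in which a difference of 1 is a factor of 2, and the array medians over all tested probe sets were close together (3.17 to 3.42). These medians lay near the background mark of 3.22 described below. The 90th percentile of the arrays varied more, from 6.21 on 1 h B to 7.43 on 0 h C. Maternal transcripts were high at 0 h and dropped, with 9 of 9 markers lower at 2 h than at 0 h, among them cpg-1, an eggshell gene (mean 4.31 at 2 h against 10.98 at 0 h). Of 7 early zygotic markers, 3 were higher at 2 h than at 0 h (pes-10, sdz-1 and ceh-51) and the list median of these differences was 0.13, with the other 4 not called. The median of the list on single arrays was highest at 1 h (5.75 to 6.83), against 3.41 to 3.83 at 0 h and 4.72 to 4.98 at 2 h. pes-10 had means of 2.66, 9.87 and 7.85 at 0, 1 and 2 h, and ceh-51, a homeobox gene of the MS lineage, had 4.14, 9.20 and 11.38. Of 9 markers of older embryos, 2 were higher at 2 h than at 0 h (dpy-17 and unc-119) and 4 at 4 h than at 0 h (dpy-17, sqt-3, noah-1 and unc-119), while the muscle gene myo-3 was not called (2.34 at 4 h against 2.30 at 0 h). Over all probe sets, 7.25% were higher and 8.53% lower at 2 h than at 0 h, and 7.11% were higher at 4 h than at 0 h. Array 1 h B stood apart: it correlated at 0.914 with 1 h A and 0.915 with 1 h C, against 0.981 between those, and its median over 5 yolk protein genes of the adult gut was 8.58, against 2.92 to 5.03 on the other 14 arrays. The titles place 1 h B and 1 h C at 1 h although their time tags read 2 h and 3 h, and the titles were followed here.

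Most fbxb genes were higher at 2 h than at 0 h, and most of these were lower again at 4 h than at 2 h. Of the 95 genes, 81 rose and 0 fell between 0 h and 2 h (limma, with p-values adjusted by Benjamini and Hochberg over all 22548 probe sets and a threshold of 0.05), a direction that turned for 10 of the 81 when arrays were centred on ribosomal protein genes and for 1 when they were centred on hybridisation controls. Over all probe sets 7.25% were called higher and 8.53% lower in that comparison. The median fbxb difference, 2 h minus 0 h, was 3.85, against 0.019 over all probe sets. Between 2 h and 4 h, 70 fbxb genes fell and 2 rose (fbxb-77 and fbxb-70), where 3.4% of all probe sets fell and 2.21% rose, and the medians of 4 h minus 2 h were -2.50 for fbxb and 0.065 over all probe sets. The same 70 genes were both higher at 2 h than at 0 h and lower at 4 h than at 2 h, a pattern found in 2.3% of all probe sets. In such bulk RNA, more cells that express a gene and more RNA per cell cannot be told apart.

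The median of the 95 genes on single arrays showed the same course. It was 3.12, 3.00 and 3.05 on the 0 h arrays A, B and C, and 4.93, 4.86 and 5.36 on the 1 h arrays. It reached 7.23, 7.42 and 7.22 on the 2 h arrays, was 4.55, 4.25 and 4.26 on the 3 h arrays, and ended at 3.49, 3.53 and 3.56 on the 4 h arrays. No array of a time reached into the range of another time. In this median, arrays 1 h B and 1 h C lay with 1 h A and away from the 2 h and 3 h arrays that their tags name. Array 1 h B, which stood apart over all genes, had the lowest fbxb median of the 3. Its maternal marker median was 5.32, nearer to the 2 h arrays (4.36 to 4.77) than to 1 h A (8.66) and 1 h C (7.71). Its early zygotic marker median was 6.57, between 1 h A (5.75) and 1 h C (6.83) and above the 2 h arrays (4.72 to 4.98). Whether the titles or the tags are right was not tested.

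A background mark was set at 3.22, the highest value of 15 control probe sets for bacterial genes that were taken to be absent from the samples. The mean of 35 of the 95 fbxb genes (36.8%) lay above it at 0 h, and at 1 h 82 genes (86.3%) had passed it. The share peaked with 88 genes (92.6%) at 2 h, and 74 genes (77.9%) at 3 h and 66 genes (69.5%) at 4 h were above the mark. Over all genes the share hardly moved, with 51.6%, 58.2%, 53.1%, 55.1% and 57.2% at 0, 1, 2, 3 and 4 h. Over the times from 0 h to 4 h, 6, 62, 71, 51 and 31 fbxb genes stood at least 1 log2 unit above the mark. Without the probe sets ending in _s_at, the shares above the mark among the remaining 83 genes were 31.3%, 84.3%, 91.6%, 74.7% and 65.1%. In all, 89 genes passed the mark at some time, 35 at every time and 6 at none (fbxb-34, fbxb-52, fbxb-55, fbxb-79, fbxb-99 and fbxb-114). The counts depend on the mark: with all 27 Bacillus subtilis controls, whose highest value was 5.98, 62 genes passed it at some time, and with 1 of those controls left out (mark 3.71) 83 did.

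The highest time mean fell at 2 h for 67 of the 95 genes (70.5%). It was at 1 h for 13 genes, and 9 had it at 3 h, 6 at 4 h and 0 at 0 h. Without _s_at probe sets it was at 2 h for 56 of 83 genes (67.5%). Over all genes 12.5% had their highest mean at 2 h, while 26.9% had it at 1 h and 25.4% at 4 h. The F test of limma over the 5 times called 82 fbxb genes, against 20.5% of all probe sets.

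**Figure D1:**
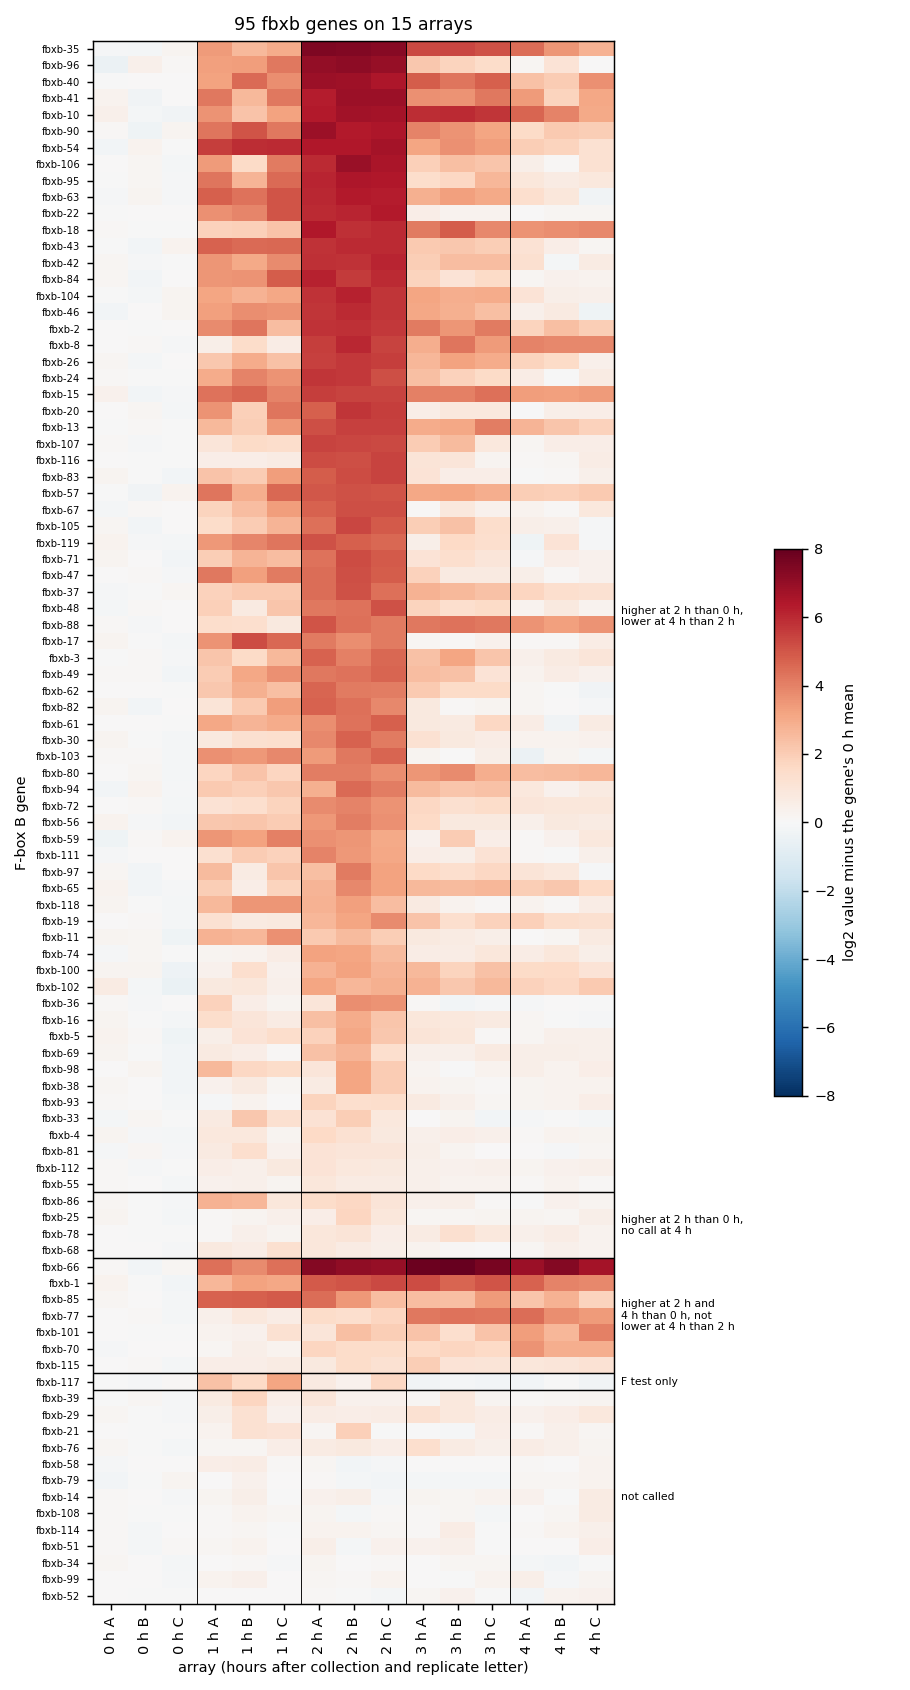
Heat map of the 95 fbxb genes (rows) on the 15 arrays (columns, by hours after collection and replicate letter), coloured by the log2 value minus the gene's own 0 h mean and grouped by which comparisons limma called. The 2 h columns are the darkest for most rows, and the 13 genes at the bottom stay pale. fbxb-66, fbxb-1, fbxb-77, fbxb-101 and fbxb-70 are still coloured at 4 h. fbxb-85 is paler at 4 h than at 1 h, and fbxb-115 is pale at all times. Some genes that rose and fell, such as fbxb-88, are also still coloured at 4 h.

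The heat map of all members sorts them by these calls. Among the 70 genes that rose and then fell, the rise ran from 0.74 to 7.38 with a median of 4.54, and 44 of them rose by at least 4 log2 units. Their fall from 2 h to 4 h ran from 0.58 to 6.62 with a median of 3.73. Of the rise on the log2 scale, less than 10% was left at 4 h for 28 of the 70 genes, less than 25% for 50 and less than 50% for 62. Over the 81 genes that rose, standard errors (SE) of the differences ran from 0.10 to 0.58 and adjusted p from 6.25e-10 to 0.0258 (limma). RMA compresses low values, and 51 of the 81 had a 0 h mean within the background mark, so their folds are lower bounds, computed as the 2 h mean over the mark.

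Several genes were high at 2 h and at 4 h not called different from 0 h. fbxb-96 read 3.42, 4.28 and 3.96 at 0 h, 7.17, 7.21 and 8.14 at 1 h, 10.93, 11.07 and 10.84 at 2 h, 6.04, 5.66 and 5.33 at 3 h and 4.05, 5.01 and 3.91 at 4 h. The 0 h arrays of fbxb-106 were at 2.98, 3.14 and 2.79, its 1 h arrays at 6.36, 4.51 and 7.14, its 2 h arrays at 8.94, 9.90 and 9.52, its 3 h arrays at 4.86, 5.39 and 5.20 and its 4 h arrays at 3.44, 3.09 and 4.20. For fbxb-95 the values were 3.11, 3.31 and 3.06 at 0 h, 7.46, 5.86 and 7.68 at 1 h, 9.23, 9.62 and 9.56 at 2 h, 4.55, 4.79 and 5.80 at 3 h and 4.07, 3.79 and 3.97 at 4 h. In all 3 genes the 2 h arrays lay above every other array. The 2 h minus 0 h differences of fbxb-96, fbxb-106 and fbxb-95 were 7.06, 6.49 and 6.31, which is 133-fold, at least 75.2-fold and at least 75.9-fold. The 4 h means were then 6.62, 5.88 and 5.53 below the 2 h means. fbxb-96 and fbxb-95 belong to the same run of fbxb genes on chromosome II, with 2 other protein-coding genes between them.

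fbxb-63 had 3.35, 3.69 and 3.36 at 0 h, 8.27, 7.82 and 8.53 at 1 h, 9.49, 9.83 and 9.75 at 2 h, 6.32, 6.73 and 6.48 at 3 h and 4.80, 4.35 and 3.21 at 4 h. In fbxb-22 the 0 h values were 2.15, 2.22 and 2.19, those of 1 h 5.84, 6.11 and 7.25, those of 2 h 8.18, 8.30 and 8.52, those of 3 h 2.71, 2.49 and 2.45 and those of 4 h 2.20, 2.36 and 2.33. fbxb-43 began with 2.78, 2.58 and 3.10 at 0 h, gave 7.52, 7.33 and 7.42 at 1 h, 8.61, 8.80 and 8.79 at 2 h and 4.94, 4.97 and 4.80 at 3 h, and ended with 4.00, 3.35 and 3.00 at 4 h. All 3 peaked at 2 h on every array. fbxb-22, on chromosome III, stood within the background mark on all arrays of 0, 3 and 4 h, and its 2 h mean was 6.14 ± 0.27 (SE) above that at 0 h, at least 34.5-fold. The 2 h differences of fbxb-63 and fbxb-43 against 0 h were 6.22 and 5.91. By 4 h these 3 genes had dropped by 5.57, 6.03 and 5.28 on the log2 scale.

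fbxb-42 was measured at 2.82, 2.57 and 2.64 at 0 h, 6.24, 5.71 and 6.46 at 1 h, 8.51, 8.45 and 8.79 at 2 h, 4.66, 5.15 and 5.17 at 3 h and 3.94, 2.55 and 3.35 at 4 h. Values of fbxb-84 were 2.65, 2.29 and 2.52 at 0 h, 6.02, 6.10 and 7.32 at 1 h, 8.66, 8.05 and 8.45 at 2 h, 4.28, 3.58 and 4.02 at 3 h and 2.66, 2.83 and 2.79 at 4 h. fbxb-46 read 3.15, 3.45 and 3.59 at 0 h, 6.66, 7.12 and 6.98 at 1 h, 9.12, 9.36 and 9.13 at 2 h, 6.47, 6.24 and 5.83 at 3 h and 3.83, 4.12 and 3.06 at 4 h. Again the 2 h arrays were the highest of each gene, and the 1 h arrays already stood above all 0 h arrays. The 2 h minus 0 h differences were 5.91, 5.90 and 5.81, and the 4 h minus 2 h differences -5.30, -5.63 and -5.53. fbxb-42 and fbxb-43 belong to the same run of fbxb genes on chromosome II, whereas fbxb-84 lies on chromosome III.

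The 0 h arrays of fbxb-24 were at 4.70, 4.58 and 4.59, its 1 h arrays at 7.56, 8.61 and 8.21, its 2 h arrays at 10.37, 10.29 and 9.78, its 3 h arrays at 7.00, 6.45 and 6.14 and its 4 h arrays at 5.23, 4.62 and 5.28. For fbxb-20 the values were 2.68, 2.77 and 2.45 at 0 h, 6.25, 4.54 and 6.90 at 1 h, 7.39, 8.37 and 8.19 at 2 h, 3.18, 3.49 and 3.46 at 3 h and 2.58, 3.10 and 3.15 at 4 h. fbxb-104 had 3.06, 2.98 and 3.31 at 0 h, 6.29, 5.87 and 6.19 at 1 h, 8.89, 9.26 and 8.86 at 2 h, 6.27, 6.02 and 6.07 at 3 h and 4.21, 3.58 and 3.51 at 4 h. The 2 h arrays of all 3 genes were above those of the other times. Differences of 2 h minus 0 h were 5.53, 5.35 and 5.89, and those of 4 h minus 2 h were -5.10, -5.05 and -5.23. fbxb-104 still stood 0.65 ± 0.19 (SE) above its 0 h mean at 4 h (adjusted p = 0.034, limma), a call that was lost without array 0 h A, 0 h B or 4 h A (adjusted p = 0.0893 to 0.119). The sign of this difference turned with ribosomal protein centring (-0.75) and with hybridisation control centring (-0.31).

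**Figure D2:**
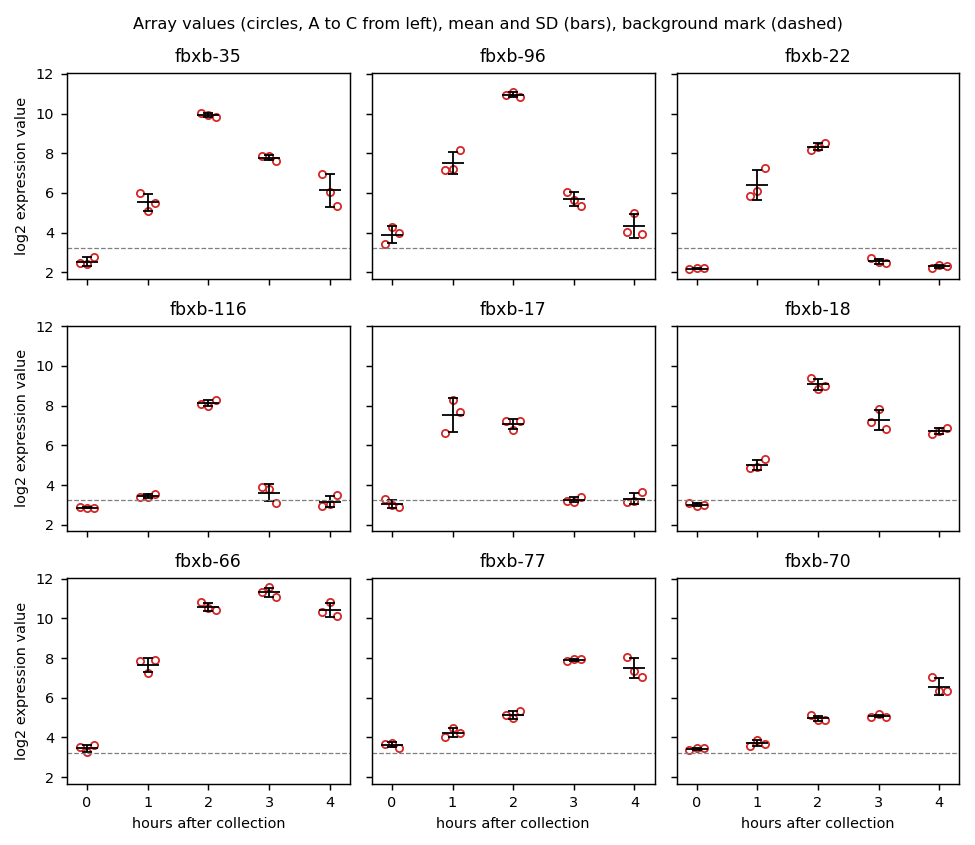
Log2 value (vertical axis) on each array at 0, 1, 2, 3 and 4 h after collection (horizontal axis) for 9 fbxb genes chosen to show the different courses, with circles for arrays A to C, bars for the mean and SD, and a dashed line for the background mark of 3.22. fbxb-22 and fbxb-116 are above the line mainly around 2 h, fbxb-17 is already high at 1 h, and fbxb-66, fbxb-77 and fbxb-70 are still high at 4 h.

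At 4 h, 30 fbxb genes were higher than at 0 h and 0 were lower, where 7.11% of all probe sets were called higher and 9.57% lower, and the median fbxb difference was 0.41, against 0.094 over all probe sets. With 1 h B and 1 h C grouped by their tags the count of higher genes was 17, and after centring on ribosomal protein genes it was 15, with 64 lower. Of the 30 genes, 23 had fallen since 2 h. Of the 30, 9 were read by _s_at probe sets, whose signal can include related transcripts. These were fbxb-8, fbxb-15, fbxb-40, fbxb-41, fbxb-54, fbxb-72, fbxb-88, fbxb-100 and fbxb-104. Without _s_at probe sets 21 of 83 genes (25.3%) were higher at 4 h than at 0 h, with a median difference of 0.33. In fbxb-35 the 0 h values were 2.44, 2.40 and 2.78, those of 1 h 5.97, 5.11 and 5.49, those of 2 h 10.01, 9.95 and 9.80, those of 3 h 7.85, 7.86 and 7.62 and those of 4 h 6.98, 6.06 and 5.35. fbxb-40 began with 2.68, 2.74 and 2.73 at 0 h, gave 5.93, 7.25 and 6.44 at 1 h, 9.53, 9.48 and 9.17 at 2 h and 7.58, 6.99 and 7.48 at 3 h, and ended with 5.09, 4.77 and 6.37 at 4 h. fbxb-41 was measured at 3.52, 2.97 and 3.32 at 0 h, 7.47, 5.86 and 7.49 at 1 h, 9.57, 10.11 and 10.10 at 2 h, 6.91, 6.89 and 7.52 at 3 h and 6.70, 5.07 and 6.37 at 4 h. In these 3 genes, the 4 h arrays lay between the 2 h arrays and the 0 h arrays with no overlap. The rises to 2 h were 7.38, 6.67 and 6.66, at least 104-fold, at least 72.1-fold and 101-fold (the last from a 0 h mean of 3.27, just above the mark). At 4 h the means were still 3.59, 2.69 and 2.78 above those of 0 h.

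Values of fbxb-10 were 4.28, 3.72 and 3.59 at 0 h, 7.47, 6.17 and 7.11 at 1 h, 10.23, 10.58 and 10.49 at 2 h, 9.75, 9.83 and 9.56 at 3 h and 8.55, 7.81 and 6.92 at 4 h. fbxb-90 read 2.90, 2.45 and 3.05 at 0 h, 7.11, 7.86 and 6.99 at 1 h, 9.67, 9.16 and 9.24 at 2 h, 6.74, 6.42 and 5.98 at 3 h and 4.36, 4.90 and 4.76 at 4 h. The 0 h arrays of fbxb-54 were at 3.76, 4.26 and 3.97, its 1 h arrays at 9.53, 9.89 and 9.99, its 2 h arrays at 10.37, 10.40 and 10.68, its 3 h arrays at 7.17, 7.63 and 7.31 and its 4 h arrays at 5.96, 5.80 and 5.19. The 1 h arrays of these 3 genes were already above all their 0 h arrays, and fbxb-54 at 1 h had a mean of 9.80, against 10.48 at 2 h. Rises to 2 h were 6.57, 6.56 and 6.49, and falls from 2 h to 4 h were 2.67, 4.69 and 4.83 on the log2 scale. fbxb-10 kept the most of its rise among them, with a 4 h mean 3.90 ± 0.38 (SE) above 0 h.

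For fbxb-18 the values were 3.08, 2.94 and 2.97 at 0 h, 4.86, 4.90 and 5.30 at 1 h, 9.38, 8.84 and 8.98 at 2 h, 7.17, 7.84 and 6.83 at 3 h and 6.57, 6.74 and 6.87 at 4 h. fbxb-8 had 3.35, 3.39 and 3.24 at 0 h, 3.83, 4.80 and 3.92 at 1 h, 8.84, 9.34 and 8.75 at 2 h, 6.24, 7.63 and 6.71 at 3 h and 7.27, 7.18 and 7.17 at 4 h. In fbxb-15 the 0 h values were 5.30, 4.77 and 4.88, those of 1 h 9.30, 9.65 and 8.96, those of 2 h 10.51, 10.40 and 10.37, those of 3 h 9.03, 9.0 and 9.39 and those of 4 h 8.33, 8.28 and 8.41. Every 4 h array of these 3 genes exceeded every 0 h array and lay below every 2 h array. Their 2 h minus 0 h differences were 6.07, 5.65 and 5.44, and more than 50% of each was left at 4 h on the log2 scale (61.4%, 68.7% and 61.6%). fbxb-15 was above the mark at every time, and fbxb-8 averaged 4.18 at 1 h and 8.98 at 2 h.

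fbxb-2 began with 3.58, 3.52 and 3.61 at 0 h, gave 7.33, 7.83 and 6.04 at 1 h, 9.35, 9.40 and 9.22 at 2 h and 7.69, 7.12 and 7.72 at 3 h, and ended with 5.37, 5.95 and 5.53 at 4 h. fbxb-26 was measured at 3.87, 3.56 and 3.74 at 0 h, 5.88, 6.68 and 6.05 at 1 h, 9.18, 9.37 and 9.23 at 2 h, 6.38, 6.93 and 6.66 at 3 h and 5.50, 5.28 and 4.11 at 4 h. Both rose by over 5 log2 units to 2 h (5.76 and 5.54), and at 4 h they were 2.05 and 1.24 above 0 h. The 4 h call of fbxb-26 was lost without array 0 h B, 4 h A or 4 h B (differences of 0.97 to 1.16, adjusted p = 0.0547 to 0.0636, limma), and its sign turned with ribosomal protein centring (-0.16). fbxb-13 read 3.07, 3.19 and 3.05 at 0 h, 8.25, 8.54 and 8.55 at 2 h and 5.85, 5.30 and 4.96 at 4 h. The arrays of fbxb-57 gave 4.49, 4.23 and 4.83 at 0 h, 9.51, 9.61 and 9.52 at 2 h and 6.46, 6.40 and 6.63 at 4 h. For fbxb-37 the values were 3.22, 3.26 and 3.44 at 0 h, 7.77, 8.39 and 7.71 at 2 h and 5.04, 4.62 and 4.51 at 4 h. In these 3 genes the 4 h arrays were again between the 2 h and the 0 h arrays, 2.27, 1.98 and 1.42 above the 0 h means.

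fbxb-80 had 3.67, 3.81 and 3.51 at 0 h, 7.74, 7.72 and 7.39 at 2 h and 6.15, 6.21 and 6.29 at 4 h. fbxb-72 read 3.73, 3.74 and 3.53 at 0 h, 7.44, 7.66 and 7.28 at 2 h and 4.63, 4.54 and 4.54 at 4 h. The arrays of fbxb-19 gave 2.93, 3.02 and 2.78 at 0 h, 5.54, 6.05 and 6.72 at 2 h and 4.79, 4.32 and 4.17 at 4 h. fbxb-80, annotated as a pseudogene, rose by 3.96 to 2 h and stayed 2.56 above 0 h at 4 h. fbxb-72 and fbxb-19 rose by 3.80 and 3.19 and ended 0.91 and 1.52 above 0 h, with no overlap between the arrays of 4 h and 0 h in either. For fbxb-72 the sign of the 4 h minus 0 h difference turned with arrays centred on ribosomal protein genes (-0.49) or on hybridisation controls (-0.051).

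In other genes of this kind a call depended on single arrays. For fbxb-88 the values were 3.61, 3.39 and 3.54 at 0 h, 8.52, 7.92 and 7.66 at 2 h and 7.09, 6.82 and 7.10 at 4 h. fbxb-65 had 3.45, 2.94 and 3.10 at 0 h, 5.88, 6.99 and 6.40 at 2 h and 5.13, 5.33 and 4.73 at 4 h. fbxb-100 read 4.82, 4.84 and 4.23 at 0 h, 7.40, 7.85 and 7.34 at 2 h and 6.18, 6.23 and 5.73 at 4 h. All 3 had 4 h arrays above every 0 h array, by 3.49, 1.90 and 1.42 on average. The fall of fbxb-88 (-1.03) missed the threshold without array 4 h B (adjusted p = 0.0513), and that of fbxb-100 (-1.48) without array 2 h B (adjusted p = 0.0538). That of fbxb-65 (-1.36, adjusted p = 0.0408, limma) missed it when any 1 of 10 arrays was left out (0 h B, 0 h C, 2 h B, 2 h C and each array of 3 h and 4 h). The arrays of fbxb-102 gave 3.87, 3.03 and 2.66 at 0 h, 6.32, 5.87 and 6.01 at 2 h and 5.06, 4.85 and 5.25 at 4 h. For fbxb-74 the values were 2.72, 2.92 and 2.75 at 0 h, 6.05, 5.98 and 5.35 at 2 h and 3.42, 3.73 and 3.24 at 4 h. fbxb-102 fell by 1.01 on the log2 scale with an adjusted p of 0.0495 (limma), a call lost when any 1 of 11 arrays was left out, the exceptions being 0 h A, 0 h C, 1 h B and 3 h B. fbxb-74 was 0.67 higher at 4 h than at 0 h, a call lost without any array of 0 h or without 4 h A or 4 h B (adjusted p = 0.0503 to 0.132). Its sign turned after centring on ribosomal protein genes (-0.73) or on hybridisation controls (-0.29).

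In 7 genes the rise to 2 h was not followed by a called fall, and the 4 h mean stayed above that of 0 h: fbxb-66, fbxb-1, fbxb-85, fbxb-77, fbxb-101, fbxb-70 and fbxb-115. Values of fbxb-66 were 3.53, 3.26 and 3.60 at 0 h, 7.85, 7.23 and 7.90 at 1 h, 10.82, 10.54 and 10.42 at 2 h, 11.31, 11.56 and 11.08 at 3 h and 10.32, 10.83 and 10.11 at 4 h. fbxb-66, the first fbxb gene in order along chromosome I, had its highest mean at 3 h, where all arrays were above those of 2 h. Its 2 h mean was 7.13 ± 0.22 (SE) above 0 h (140-fold, adjusted p = 6.25e-10, limma), and its 4 h mean 6.96 above. The 0 h mean of fbxb-66 was 3.46, just above the mark of 3.22, so this fold depends on the mark. fbxb-1 read 3.76, 3.43 and 3.27 at 0 h, 6.13, 6.70 and 6.59 at 1 h, 8.39, 8.54 and 8.74 at 2 h, 8.68, 8.16 and 8.52 at 3 h and 8.23, 7.46 and 7.34 at 4 h. fbxb-1 on chromosome V kept 82.6% of a rise of 5.07, and its 4 h minus 2 h difference of -0.88 missed the threshold (adjusted p = 0.0552, limma). The 0 h arrays of fbxb-85 were at 4.02, 3.88 and 3.74, its 1 h arrays at 8.60, 8.66 and 8.79, its 2 h arrays at 8.38, 7.35 and 6.34, its 3 h arrays at 6.34, 6.26 and 7.31 and its 4 h arrays at 6.10, 6.67 and 5.64. fbxb-85 was highest at 1 h, a time that all its later arrays stayed below.

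For fbxb-77 the values were 3.68, 3.71 and 3.48 at 0 h, 4.04, 4.50 and 4.21 at 1 h, 5.11, 4.97 and 5.35 at 2 h, 7.85, 7.95 and 7.93 at 3 h and 8.06, 7.37 and 7.05 at 4 h. fbxb-77 on chromosome IV rose first by 1.52 to 2 h and again by 2.35 ± 0.21 (SE) to 4 h (adjusted p = 1.18e-05, limma), and its 3 h arrays were already above its 2 h arrays. fbxb-70 had 3.36, 3.47 and 3.46 at 0 h, 3.56, 3.89 and 3.69 at 1 h, 5.13, 4.89 and 4.89 at 2 h, 5.04, 5.17 and 5.05 at 3 h and 7.04, 6.35 and 6.32 at 4 h. fbxb-70 on chromosome I was flat between 2 h and 3 h and then higher on every 4 h array, by 1.60 ± 0.17 (SE) over 2 h (adjusted p = 4.89e-05, limma). In fbxb-101 the 0 h values were 2.75, 2.72 and 2.72, those of 1 h 3.04, 3.05 and 3.97, those of 2 h 3.68, 5.16 and 4.68, those of 3 h 4.99, 4.07 and 5.02 and those of 4 h 6.08, 5.39 and 6.78. fbxb-101 had the same order of means, with a 4 h minus 2 h difference of 1.57 (adjusted p = 0.0524, limma). Its rise to 2 h, 1.77, missed the threshold without array 2 h B (1.45, adjusted p = 0.0565). fbxb-115 began with 3.01, 3.05 and 2.81 at 0 h, gave 3.50, 3.48 and 3.63 at 1 h, 3.76, 4.42 and 4.17 at 2 h and 4.89, 4.08 and 4.00 at 3 h, and ended with 3.85, 3.93 and 4.08 at 4 h. fbxb-115 stayed a little above the mark from 1 h on, 1.17 above 0 h at 2 h and 1.00 above it at 4 h, and both differences turned below 0 (-0.25 and -0.40) with arrays centred on ribosomal protein genes. Only fbxb-77 and fbxb-70 of the 95 genes (2.11%) were called higher at 4 h than at 2 h, near the 2.21% over all probe sets. With arrays grouped by their tags 1 gene was, and with hybridisation control centring 0.

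The 2 genes with a second rise were among those whose calls depended on how arrays were grouped and scaled. The 2 h minus 0 h difference of fbxb-77 was 0.10 with ribosomal protein centring (adjusted p = 0.708), 0.79 with hybridisation control centring (adjusted p = 0.428) and 1.36 with the tagged times of 1 h B and 1 h C (adjusted p = 0.35, limma). That of fbxb-70 was 0.12 with ribosomal protein centring (adjusted p = 0.608) and 0.81 with hybridisation control centring (adjusted p = 0.428, limma). Their 4 h minus 2 h calls were lost with hybridisation control centring (2.12 and 1.37, adjusted p = 0.0697 and 0.685), and that of fbxb-77 also with tagged times (2.51, adjusted p = 0.138, limma).

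Beyond the differences that turned sign, calls were lost in the same settings. Ribosomal protein centring ended the 2 h against 0 h calls of 6 (fbxb-38, fbxb-70, fbxb-77, fbxb-93, fbxb-98 and fbxb-101), the 4 h against 2 h calls of 6 (fbxb-4, fbxb-55, fbxb-81, fbxb-88, fbxb-102 and fbxb-112) and the 4 h against 0 h calls of 10 (fbxb-2, fbxb-19, fbxb-37, fbxb-54, fbxb-57, fbxb-65, fbxb-85, fbxb-90, fbxb-100 and fbxb-102). Tagged times ended 2 h against 0 h calls for 6 (fbxb-25, fbxb-36, fbxb-68, fbxb-77, fbxb-78 and fbxb-101), 4 h against 2 h calls for 25 (fbxb-8, fbxb-10, fbxb-11, fbxb-13, fbxb-18, fbxb-19, fbxb-35, fbxb-36, fbxb-38, fbxb-41, fbxb-48, fbxb-65, fbxb-69, fbxb-74, fbxb-77, fbxb-80, fbxb-88, fbxb-93, fbxb-97, fbxb-98, fbxb-100, fbxb-102, fbxb-112, fbxb-116 and fbxb-118) and 4 h against 0 h calls for 13 (fbxb-13, fbxb-19, fbxb-26, fbxb-35, fbxb-37, fbxb-41, fbxb-54, fbxb-65, fbxb-72, fbxb-74, fbxb-100, fbxb-102 and fbxb-104). With hybridisation control centring the lost calls were 20 (fbxb-4, fbxb-5, fbxb-11, fbxb-16, fbxb-25, fbxb-33, fbxb-36, fbxb-38, fbxb-55, fbxb-69, fbxb-70, fbxb-77, fbxb-78, fbxb-81, fbxb-86, fbxb-93, fbxb-98, fbxb-101, fbxb-112 and fbxb-115) at 2 h against 0 h, 19 (fbxb-4, fbxb-8, fbxb-11, fbxb-19, fbxb-33, fbxb-38, fbxb-55, fbxb-65, fbxb-69, fbxb-70, fbxb-77, fbxb-80, fbxb-81, fbxb-88, fbxb-93, fbxb-98, fbxb-100, fbxb-102 and fbxb-112) at 4 h against 2 h and 15 (fbxb-2, fbxb-13, fbxb-19, fbxb-26, fbxb-37, fbxb-41, fbxb-54, fbxb-57, fbxb-65, fbxb-80, fbxb-85, fbxb-90, fbxb-100, fbxb-102 and fbxb-115) at 4 h against 0 h. Quantile normalization ended 5 calls at 4 h against 2 h (fbxb-65, fbxb-80, fbxb-88, fbxb-100 and fbxb-102) and 3 at 4 h against 0 h (fbxb-26, fbxb-74 and fbxb-104), and centring on the array median 2 (fbxb-65 and fbxb-98) and 2 (fbxb-74 and fbxb-104).

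The remaining 36 genes that rose and fell were not called different between 4 h and 0 h, and they are given by chromosome. On chromosome I, fbxb-67 had 3.00, 3.23 and 3.18 at 0 h, 7.85, 8.33 and 8.28 at 2 h and 3.41, 3.23 and 3.96 at 4 h. fbxb-94 read 2.65, 3.16 and 2.79 at 0 h, 5.74, 7.42 and 6.98 at 2 h and 3.72, 3.19 and 3.57 at 4 h. The arrays of fbxb-56 gave 3.05, 2.69 and 2.55 at 0 h, 6.21, 6.85 and 6.41 at 2 h and 3.19, 3.53 and 3.42 at 4 h. fbxb-94, a pseudogene in the annotation, and its neighbour fbxb-56 differed by 3.85 and 3.73 between 2 h and 0 h, and fbxb-67 by 5.02. For fbxb-69 the values were 3.10, 2.84 and 2.66 at 0 h, 5.23, 5.59 and 4.20 at 2 h and 3.34, 3.31 and 3.29 at 4 h. fbxb-93 had 2.74, 2.69 and 2.53 at 0 h, 4.44, 3.97 and 4.05 at 2 h and 2.87, 2.92 and 3.17 at 4 h. fbxb-69 and fbxb-93 were weaker, 2.14 and 1.50 higher at 2 h than at 0 h, yet the arrays of these times did not overlap.

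On chromosome II, 3 genes of a run around fbxb-106 behaved alike. fbxb-107 read 3.12, 2.93 and 2.99 at 0 h, 8.40, 8.34 and 8.33 at 2 h and 3.19, 3.53 and 3.56 at 4 h. The arrays of fbxb-105 gave 3.27, 2.94 and 3.19 at 0 h, 7.52, 8.46 and 8.04 at 2 h and 3.63, 3.52 and 3.04 at 4 h. For fbxb-111 the values were 3.84, 4.02 and 4.01 at 0 h, 7.93, 7.45 and 7.08 at 2 h and 4.05, 3.95 and 4.37 at 4 h. Their 2 h arrays were above all 0 h and 4 h arrays, with rises of 5.34, 4.87 and 3.53. fbxb-47 had 3.43, 3.47 and 3.28 at 0 h, 7.86, 8.52 and 8.21 at 2 h and 3.88, 3.48 and 3.75 at 4 h. fbxb-48 read 2.76, 2.96 and 2.95 at 0 h, 7.11, 7.26 and 7.97 at 2 h and 3.18, 3.65 and 3.18 at 4 h. The arrays of fbxb-5 gave 3.84, 3.68 and 3.21 at 0 h, 5.40, 6.65 and 5.74 at 2 h and 3.75, 3.98 and 4.00 at 4 h. The rises of fbxb-47, fbxb-48 and fbxb-5 were 4.80, 4.56 and 2.35, and their falls to 4 h were 4.49, 4.11 and 2.02 on the log2 scale. For fbxb-49 the values were 3.28, 3.31 and 2.97 at 0 h, 7.43, 7.51 and 7.87 at 2 h and 3.46, 3.75 and 3.56 at 4 h. fbxb-30 had 2.90, 2.61 and 2.50 at 0 h, 6.53, 7.42 and 6.81 at 2 h and 2.98, 2.96 and 2.98 at 4 h. fbxb-103 read 3.44, 3.44 and 3.25 at 0 h, 6.76, 7.62 and 8.06 at 2 h and 2.93, 3.58 and 3.21 at 4 h. These 3 rose by 4.42, 4.25 and 4.10, and fbxb-103 ended close to its 0 h mean at 4 h (-0.14).

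The arrays of fbxb-97 gave 3.29, 2.88 and 3.17 at 0 h, 5.52, 7.30 and 6.37 at 2 h and 4.16, 3.93 and 3.00 at 4 h. For fbxb-16 the values were 2.63, 2.39 and 2.25 at 0 h, 4.80, 5.40 and 4.64 at 2 h and 2.57, 2.42 and 2.35 at 4 h. fbxb-97 and fbxb-16 rose by 3.28 and 2.53 to 2 h, and the 2 h arrays of both lay above their 0 h and 4 h arrays. fbxb-112 had 2.54, 2.35 and 2.42 at 0 h, 3.56, 3.30 and 3.22 at 2 h and 2.63, 2.76 and 2.84 at 4 h. fbxb-36 read 3.18, 2.97 and 3.11 at 0 h, 4.08, 6.78 and 6.68 at 2 h and 2.99, 3.15 and 3.05 at 4 h. fbxb-112 moved by 0.92 close to the mark, a difference that turned to -0.50 with ribosomal protein centring. fbxb-36, a pseudogene in the annotation, had 1 low 2 h array (A), a rise of 2.76 and a fall that missed the threshold without array 2 h B or 2 h C (adjusted p = 0.0632 to 0.064). The arrays of fbxb-98 gave 3.07, 3.23 and 2.80 at 0 h, 3.97, 6.20 and 5.06 at 2 h and 3.49, 3.33 and 3.56 at 4 h. For fbxb-38 the values were 2.66, 2.58 and 2.32 at 0 h, 3.20, 5.69 and 4.53 at 2 h and 2.74, 2.82 and 2.79 at 4 h. fbxb-98 and fbxb-38 also had a low 2 h array A, with rises of 2.04 and 1.96. Their falls (-1.62 and -1.69, adjusted p = 0.0496 and 0.0387, limma) were lost without most single arrays, 13 of the 15 for fbxb-98 (all but 1 h A and 2 h A) and 12 for fbxb-38 (all but 1 h B, 1 h C and 2 h A).

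In 5 of the 70 genes that rose and fell the mean was already highest at 1 h: fbxb-17, fbxb-118, fbxb-11, fbxb-33 and fbxb-59. fbxb-17 was measured at 3.28, 3.00 and 2.89 at 0 h, 6.63, 8.29 and 7.66 at 1 h, 7.23, 6.78 and 7.22 at 2 h, 3.21, 3.16 and 3.39 at 3 h and 3.14, 3.17 and 3.63 at 4 h. Values of fbxb-118 were 2.97, 2.71 and 2.61 at 0 h, 5.37, 6.27 and 6.28 at 1 h, 5.55, 6.02 and 5.24 at 2 h, 3.45, 3.06 and 2.87 at 3 h and 3.04, 2.88 and 3.38 at 4 h. fbxb-11 read 3.65, 3.58 and 3.13 at 0 h, 6.22, 6.09 and 7.14 at 1 h, 5.54, 6.00 and 5.45 at 2 h, 4.23, 4.10 and 3.91 at 3 h and 3.49, 3.59 and 4.15 at 4 h. The arrays of 1 h and 2 h overlapped in fbxb-17 and fbxb-118, and both times were above all 0 h arrays in the 3 genes. The 2 h minus 0 h differences were 4.02, 2.84 and 2.21. The 0 h arrays of fbxb-59 were at 3.86, 4.32 and 4.50, its 1 h arrays at 7.78, 7.45 and 8.25, its 2 h arrays at 7.88, 7.77 and 7.28, its 3 h arrays at 4.55, 6.24 and 4.73 and its 4 h arrays at 4.30, 4.55 and 5.06. For fbxb-33 the values were 2.36, 2.63 and 2.49 at 0 h, 3.23, 4.65 and 3.75 at 1 h, 3.64, 4.47 and 3.33 at 2 h, 2.53, 2.72 and 2.27 at 3 h and 2.38, 2.45 and 2.35 at 4 h. fbxb-59 on chromosome V was 3.42 higher at 2 h than at 0 h. fbxb-33 was 1.32 higher, a call that was lost without array 2 h B (0.99, adjusted p = 0.0612, limma), and its sign turned with ribosomal protein centring (-0.10). Its fall to 4 h was lost without array 2 h B or any array of 4 h (adjusted p = 0.059 to 0.0956).

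On chromosome III, fbxb-83 had 2.86, 2.62 and 2.46 at 0 h, 7.49, 7.88 and 8.04 at 2 h and 2.58, 2.73 and 3.04 at 4 h. fbxb-82 read 2.71, 2.32 and 2.52 at 0 h, 7.26, 6.91 and 6.34 at 2 h and 2.65, 2.54 and 2.45 at 4 h. The arrays of fbxb-81 gave 2.71, 2.93 and 2.71 at 0 h, 3.86, 3.75 and 3.74 at 2 h and 2.83, 2.68 and 2.93 at 4 h. fbxb-83 and fbxb-82 were 5.16 and 4.32 higher at 2 h than at 0 h, and fbxb-81, next to them, 1.00. The fall of fbxb-81 was lost without array 4 h B (-0.90, adjusted p = 0.0568, limma), and its rise turned to -0.42 with ribosomal protein centring. On chromosome IV, for fbxb-3 the values were 3.20, 3.30 and 3.13 at 0 h, 7.93, 7.27 and 7.79 at 2 h and 3.61, 3.95 and 4.17 at 4 h. fbxb-4 had 3.13, 2.81 and 2.72 at 0 h, 4.50, 4.10 and 3.70 at 2 h and 2.96, 3.20 and 3.09 at 4 h. fbxb-55 read 2.45, 2.38 and 2.18 at 0 h, 3.22, 3.01 and 3.00 at 2 h and 2.46, 2.59 and 2.45 at 4 h. fbxb-3 rose by 4.45 and fbxb-4 of the same run, a pseudogene in the annotation, by 1.21. fbxb-55 was within the mark at every time mean, with differences of 0.74 and -0.58 for 2 h minus 0 h and 4 h minus 2 h. With ribosomal protein centring, the 2 h minus 0 h differences of fbxb-4 and fbxb-55 were -0.21 and -0.68.

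On chromosome V, the arrays of fbxb-119 gave 3.56, 3.14 and 3.08 at 0 h, 8.35, 8.05 and 7.85 at 2 h and 2.93, 4.33 and 3.19 at 4 h. For fbxb-62 the values were 3.31, 3.32 and 3.28 at 0 h, 7.95, 7.45 and 7.42 at 2 h and 3.46, 3.26 and 3.04 at 4 h. fbxb-61 had 3.15, 3.21 and 3.09 at 0 h, 6.85, 7.51 and 7.95 at 2 h and 3.75, 2.84 and 3.78 at 4 h. These 3 rose by 4.82, 4.30 and 4.29, and the 4 h mean of fbxb-62 was 4.35 below that of 2 h. fbxb-116 had 2.91, 2.86 and 2.82 at 0 h, 3.39, 3.39 and 3.54 at 1 h, 8.06, 8.0 and 8.30 at 2 h, 3.90, 3.82 and 3.11 at 3 h and 2.94, 3.05 and 3.48 at 4 h. fbxb-116 was near the mark at all times but 2 h, where it was 5.26 ± 0.20 (SE) above 0 h (at least 29.8-fold). fbxb-71 read 3.12, 2.92 and 2.72 at 0 h, 7.28, 8.13 and 7.80 at 2 h and 2.80, 3.44 and 3.27 at 4 h. fbxb-71 was the 1 called gene of 3 measured on the X chromosome, with a rise of 4.82 and a fall of 4.57 on the log2 scale.

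Small rises with no called fall were seen in fbxb-86, fbxb-25, fbxb-78 and fbxb-68. The arrays of fbxb-86 gave 2.60, 2.42 and 2.39 at 0 h, 3.94, 4.12 and 3.48 at 2 h and 2.44, 2.81 and 2.66 at 4 h. For fbxb-25 the values were 2.73, 2.49 and 2.33 at 0 h, 3.06, 4.22 and 3.45 at 2 h and 2.74, 2.66 and 2.99 at 4 h. fbxb-86, a pseudogene in the annotation, had 1 h arrays at 5.22, 5.13 and 3.35, and its difference of 1.38 at 2 h was lost without array 0 h B, 0 h C, 2 h A or 2 h B (1.24 to 1.36, adjusted p = 0.0731 to 0.0983, limma). fbxb-78 had 2.97, 2.93 and 2.88 at 0 h, 3.83, 3.99 and 3.45 at 2 h and 3.31, 3.52 and 3.20 at 4 h. fbxb-68 read 2.87, 2.89 and 2.74 at 0 h, 3.71, 3.50 and 3.31 at 2 h and 2.99, 3.23 and 3.11 at 4 h. The rise of fbxb-68 (0.67) was lost without array 0 h C or 2 h A (adjusted p = 0.0611 to 0.0664) and turned to -0.059 with hybridisation control centring. With ribosomal protein centring all 4 differences were below 0 (-0.041 for fbxb-86, -0.36 for fbxb-25, -0.59 for fbxb-78 and -0.75 for fbxb-68). In fbxb-117 the 0 h values were 2.52, 2.47 and 2.66, those of 1 h 4.91, 4.15 and 5.74, those of 2 h 3.30, 2.92 and 4.23, those of 3 h 2.27, 2.42 and 2.31 and those of 4 h 2.34, 2.49 and 2.24. fbxb-117 was called by the F test alone (adjusted p = 0.00039, limma), with its highest values on the 1 h arrays.

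No comparison and no F test called fbxb-39, fbxb-29, fbxb-21, fbxb-76, fbxb-58, fbxb-79, fbxb-14, fbxb-108, fbxb-114, fbxb-51, fbxb-34, fbxb-99 and fbxb-52. Their time means lay between 2.51 and 4.77, 8 of the 13 were within the mark at 0 h, and their 2 h minus 0 h differences ran from -0.0997 to 0.67 with adjusted p of 0.0545 or more (limma). The closest to the threshold was fbxb-76, with 3.16, 3.30 and 3.04 at 2 h against 2.67, 2.49 and 2.38 at 0 h, so its arrays did not overlap. fbxb-58 on the X chromosome was above the mark on every array, and its means moved only between 4.32 at 2 h and 4.77 at 1 h. Where a probe set stays at background, a change in its transcript was not detectable.

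Counting arrays that do not overlap, without a model, 87 of the 95 genes had all 2 h arrays above all 0 h arrays, where 14.5% of all probe sets did. At 4 h, 77 genes had all arrays below those of 2 h and 4 had all above, against 9.03% and 11.8% of all probe sets. Between 4 h and 0 h, 52 genes had all later arrays above the earlier ones, against 20.6% of all probe sets.

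The family lies in tandem clusters, and in the WBcel235 gene order 84 of the 113 fbxb genes belong to 24 runs with at most 2 other protein-coding genes between neighbours. Of the 70 measured genes in such runs 61 rose to 2 h, and of the 25 outside them 20 did. By chromosome, 11 of 11 rose on I, 42 of 51 on II, 8 of 8 on III, 7 of 9 on IV, 12 of 13 on V and 1 of 3 on X. Neighbours did not always share a size of change. The chromosome III run fbxb-81, fbxb-82, fbxb-83, fbxb-84 gave 2 h minus 0 h differences of 1.00, 4.32, 5.16 and 5.90 in that order. The chromosome II run fbxb-97, fbxb-96, fbxb-95, fbxb-98 gave 3.28, 7.06, 6.31 and 2.04. In the run fbxb-52, fbxb-51, fbxb-54, fbxb-50, fbxb-49, fbxb-46, the first pair was not called (-0.028 and 0.22), and fbxb-54, fbxb-49 and fbxb-46 rose by 6.49, 4.42 and 5.81.

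**Figure D3:**
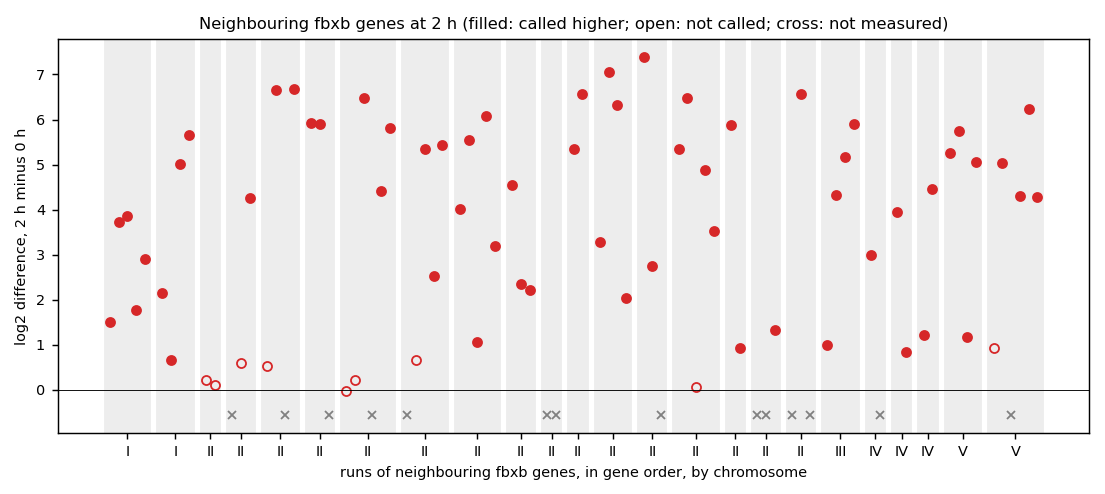
Log2 difference, 2 h minus 0 h (vertical axis), of the fbxb genes in 24 runs of neighbours, each run a shaded band in gene order with its chromosome below. Filled points were called higher by limma, open points were not called, and crosses under the zero line are members with no probe set of their own. Most bands hold filled points of very different height, and open points share bands with filled ones.

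The plot of neighbours shows further mixed runs. In fbxb-107, fbxb-106, fbxb-108, fbxb-105, fbxb-111, the middle gene was not called (0.066) between neighbours that rose by 5.34, 6.49, 4.87 and 3.53. In fbxb-39, fbxb-41, fbxb-45, fbxb-40, the first was not called (0.54), and fbxb-41 and fbxb-40, both read by _s_at probe sets, rose by 6.66 and 6.67. The pair fbxb-14 and fbxb-34 was the 1 run with measured genes and no call (0.22 and 0.11). On chromosome V, the run fbxb-116, fbxb-2, fbxb-115, fbxb-1 held 4 rises (5.26, 5.76, 1.17 and 5.07) with different ends: at 4 h fbxb-116 stood 0.29 from its 0 h mean, not called, and fbxb-2, fbxb-115 and fbxb-1 stood 2.05, 1.00 and 4.19 above theirs.

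Probe sets that name more than 1 gene were not assigned to a member, and their values are given as they stand. The set shared by fbxb-43 and fbxb-44 read 2.83, 2.45 and 2.67 at 0 h, 7.83, 8.08 and 7.91 at 2 h and 3.27, 2.86 and 3.44 at 4 h, a rise of 5.29 and a fall of 4.75 on the log2 scale. The set shared by fbxb-33 and fbxb-31 read 2.26, 2.20 and 2.35 at 0 h, 5.03, 5.38 and 4.98 at 2 h and 2.14, 2.17 and 2.19 at 4 h, a rise of 2.86. In both sets every 2 h array was above every 0 h array. The other probe set of fbxb-74 differed by 1.35 between 2 h and 0 h and by -1.31 between 4 h and 2 h, the signs of the one used. Without probe sets ending in _s_at, 70 of 83 genes rose to 2 h, 59 fell to 4 h and 59 did both.

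The other lettered F-box families were counted in the same way. Of 171 fbxa genes, whose proteins carry an F-box and a different associated domain, 7 were higher and 8 lower at 2 h than at 0 h, with a median difference of 0.04. These are 4.09% and 4.68% of the family, where 7.32% of all genes were higher and 8.83% lower. Of 44 fbxc genes, 20 (45.5%) were higher and 2 (4.55%) lower, with a median of 0.46. Between 4 h and 2 h, 2 fbxa genes were higher and 5 lower, and 4 fbxc genes were higher and 11 lower, where 2.3% of all genes were higher and 3.69% lower. The rise and fall together was called in 3 fbxa (1.75%), 10 fbxc (22.7%) and 70 fbxb genes (73.7%), against 2.56% of all genes. The highest mean was at 2 h in 16.4% of fbxa and 34.1% of fbxc genes. These differences between families were not tested. Many fbxa genes and some fbxc genes had every time mean within the background mark, where a change in the transcript was not detectable.

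**Figure D4:**
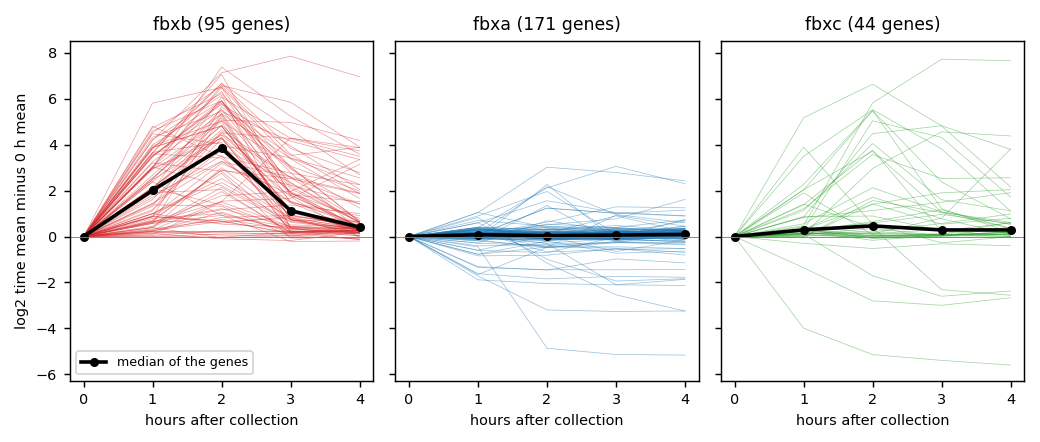
Log2 time mean minus the gene's 0 h mean (vertical axis) at 0 to 4 h after collection (horizontal axis) for 95 fbxb, 171 fbxa and 44 fbxc genes, a thin line per gene and a thick black line for the median of the family. The fbxb median peaks at 2 h, while most fbxa lines and the medians of fbxa and fbxc stay near 0.

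The plot of the 3 families places the fbxb course beside single genes of the others, some of which moved as far. The partners of F-box proteins in the SCF ligase were looked at next, as a fixed list of 27 genes of which 24 had a probe set (skr-12, skr-18 and ubc-3 had none of their own). Of the 24, 13 were higher and 2 lower at 2 h than at 0 h, and 2 were higher and 12 lower at 4 h than at 2 h. The shares over all probe sets were 7.25% higher and 8.53% lower at 2 h, and 2.21% higher and 3.4% lower at 4 h. cul-1, the cullin that carries F-box proteins and restrains cell division, read 6.64, 4.61 and 5.53 at 0 h, 5.95, 8.03 and 8.29 at 2 h and 4.88, 4.23 and 5.30 at 4 h. Its difference at 2 h was 1.83 (adjusted p = 0.0624, limma), with 2 h A apart from B and C, and it fell by 2.62 on the log2 scale to 4 h (adjusted p = 0.0219). ned-8, the ubiquitin-like modifier that activates cullins, rose by 1.10 and then fell by 1.78 on the log2 scale.

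Among the Skp1-related genes, skr-7, skr-8, skr-9 and skr-10 rose by 4.42, 6.40, 7.43 and 6.13 to 2 h and fell by 3.88, 3.02, 3.72 and 4.63 on the log2 scale to 4 h. skr-10 read 4.66, 6.06 and 6.55 at 0 h, 12.12, 11.77 and 11.76 at 2 h and 7.60, 8.83 and 5.33 at 4 h, and the 2 h arrays stood above all others of these times. skr-13, skr-14, skr-15 and skr-16 also rose (5.32, 3.96, 2.56 and 1.89) and fell. The probe sets of skr-8, skr-9 and skr-13 are of a kind that can bind transcripts of other genes, so their signals can share a source. skr-19 and skr-21 rose to 2 h (2.50 and 3.70) and further to 4 h (1.79 and 1.72). Of the 95 fbxb genes 2 (2.11%) were higher at 4 h than at 2 h, near the 2.21% over all probe sets. skr-17 and skr-3 fell by 3.10 and 0.56 on the log2 scale to 2 h, and skr-1, an essential Skp1 gene, rose by 1.00.

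**Figure D5:**
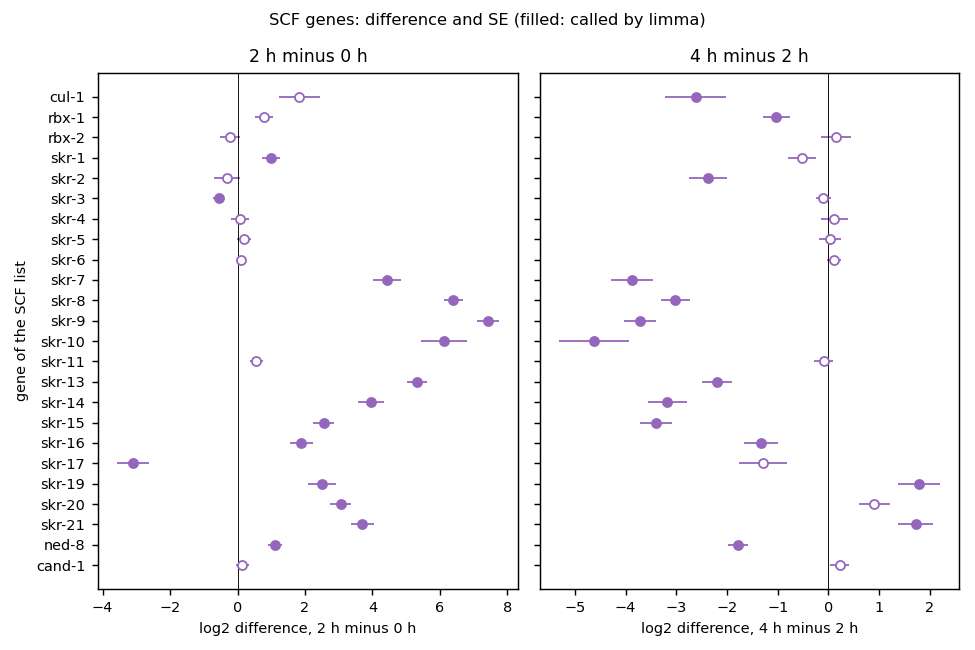
Log2 difference with its SE for 24 SCF genes, 2 h minus 0 h on the left and 4 h minus 2 h on the right, with filled points for limma calls and open points for none. The points of skr-7 to skr-10 and skr-13 to skr-16 lie right of 0 on the left and left of 0 on the right, and those of skr-19 and skr-21 lie right of 0 in both.

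The plot of SCF genes sets these partners beside the fbxb rise. Of 8 measured F-box genes outside the lettered families, 0 were higher and 2 lower at 2 h than at 0 h, where 7.25% and 8.53% of all probe sets were, and none was called between 4 h and 2 h (limma). The 2 were mec-15, of touch neurons (-2.45), and prom-1, of meiotic prophase (-1.89). lin-23 and sel-10, which mark cell cycle and Notch pathway proteins for degradation, differed by 0.32 and -0.80 at 2 h and were not called. Between 4 h and 0 h, mec-15, prom-1, the synapse gene fsn-1 and the germline sex determination gene fog-2 were lower (-2.17, -1.74, -2.05 and -2.58), where 30 of the 95 fbxb genes were higher. Over all probe sets 9.57% were lower and 7.11% higher in that comparison.

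Markers of other material were read beside the fbxb course. On array 1 h B, with its high yolk protein signal, the fbxb median was 4.86, close to the 4.93 of 1 h A. Without that array 83 fbxb genes rose to 2 h and 70 fell to 4 h. Array 1 h B is in neither comparison, so leaving it out can change only the spread estimate shared by all times. These counts therefore cannot show what its yolk signal does to the fbxb values. Of 15 measured sperm markers 2 were higher at 2 h than at 0 h, where 7.25% of all probe sets were. The median of that list lay between 3.63 and 4.68 on all arrays. Of 5 measured yolk genes 0 were called between 2 h and 0 h, where 7.25% of all probe sets were higher and 8.53% lower. What part such material has in the fbxb values was not tested. Without both 1 h B and 1 h C, which again leaves the differences unchanged, 83 rose and 70 fell. With both moved to their tagged times 76 rose, 47 fell and 63 were called by the F test.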

How the data were processed

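The log2 values that the authors deposited cover 22625 probe sets on 15 arrays. The submitters' processing notes name RMA as the method, and its version is not given in the sources used here. RMA subtracts background, equalises the arrays and combines the probes of each set, and it compresses low values. That the scale is log2 was judged from a range of 1.77 to 14.2. Depth has no meaning for arrays, so the number of arrays limits the precision. Each column was matched to its sample, leaving 0 columns over. Scanner files and detection calls were not used here.

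The 77 Affymetrix controls were left out of the tests, leaving 22548 probe sets, of which the platform annotation gave 20766 a single symbol, 887 more than 1 and 895 no symbol. All 95 measured fbxb genes matched the RefSeq table of WBcel235, which was used for names, chromosome and gene order only. A single linear model over the 5 times was fitted with lmFit and eBayes of limma 3.58.1 (R 4.3.3), with the comparisons 2 h against 0 h, 4 h against 2 h and 4 h against 0 h, an overall F test and a threshold of 0.05 on the Benjamini-Hochberg adjusted p over all probe sets. The fit was tested on simulated data before use. Folds are 2 to the power of the difference, with a 0 h mean within the background mark set to the mark.

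Named genes follow a rule: all fbxb members, with array values for those called in a comparison or by the F test, and a fixed list of SCF and other F-box genes. The 3 with the highest mean over the 15 arrays, also to be named, were fbxb-66, fbxb-15 and fbxb-10. Members, lists and tests were chosen with earlier results of these data known. Replicate letters were not treated as pairs. Deviations of same-letter arrays at different times correlated at a median of 0.028 (-0.31 to 0.34, 30 pairs), against 0.0041 (-0.36 to 0.41) for 60 pairs of different letters. The ranges overlap widely, so these correlations gave no sign of pairing but cannot exclude it. Alternatives were the tagged times of 1 h B and 1 h C, other scalings, a filter on dim probe sets, a letter block, other variance settings, probe sets without _s_at and leaving out arrays. Other background marks were chosen after seeing the control values.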

Additional observations from a re-analysis of the deposited data

How the results depend on the processing

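Leaving out each array in turn gave 78 to 83 fbxb genes higher and 0 to 0 lower at 2 h than at 0 h, 63 to 70 lower and 2 to 3 higher at 4 h than at 2 h, and 27 to 32 higher and 0 to 0 lower at 4 h than at 0 h. The F test then called 79 to 83 genes, 88 to 89 were above background at some time and 66 to 72 had their highest mean at 2 h. The median differences ran from 3.70 to 3.99 (2 h minus 0 h), from -2.65 to -2.29 (4 h minus 2 h, lowest in size without 2 h B) and from 0.37 to 0.45 (4 h minus 0 h).

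With arrays 1 h B and 1 h C at their tagged times, 1 gene was higher at 4 h than at 2 h and 17 were higher at 4 h than at 0 h, and the median differences were 3.50 for 2 h minus 0 h and -2.04 for 4 h minus 2 h. With arrays centred on ribosomal protein genes, 16 genes were lower at 2 h than at 0 h, 15 higher and 64 lower at 4 h than at 0 h, and the medians were 2.43 for 2 h minus 0 h and -0.99 for 4 h minus 0 h. Centring on hybridisation controls gave 0 genes higher at 4 h than at 2 h, 12 higher at 4 h than at 0 h, and medians of 3.12, -2.73 and -0.55 for 2 h minus 0 h, 4 h minus 2 h and 4 h minus 0 h. These 2 scalings moved the median of all probe sets by -1.40 and -0.71 for 2 h minus 0 h and by -1.31 and -0.86 for 4 h minus 0 h. A centring subtracts 1 constant from each array, so the distance between the fbxb median and that of all probe sets is fixed by construction (3.83 for 2 h minus 0 h). Quantile normalization gave a median of 3.68 and the set without _s_at probe sets 3.47 for 2 h minus 0 h. The cause of these shifts was not tested.

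Differences of called genes turned sign as follows with ribosomal protein centring. For 2 h minus 0 h they were -0.21 for fbxb-4, -0.36 for fbxb-25, -0.10 for fbxb-33, -0.68 for fbxb-55, -0.75 for fbxb-68, -0.59 for fbxb-78, -0.42 for fbxb-81, -0.041 for fbxb-86, -0.50 for fbxb-112 and -0.25 for fbxb-115. For 4 h minus 0 h they were -0.16 for fbxb-26, -0.49 for fbxb-72, -0.73 for fbxb-74, -0.75 for fbxb-104 and -0.40 for fbxb-115. With hybridisation control centring they were -0.059 for fbxb-68 (2 h minus 0 h), and -0.051, -0.29 and -0.31 for fbxb-72, fbxb-74 and fbxb-104 (4 h minus 0 h). With the letter as a replicate block, 81 genes were higher at 2 h than at 0 h, 68 lower at 4 h than at 2 h and 29 higher at 4 h than at 0 h. The block ended the calls of fbxb-65 and fbxb-98 (4 h against 2 h) and fbxb-74 (4 h against 0 h), and only a letter is known to link the samples.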
